A study of Mus musculus with 11 samples.

Results

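The genes described here carry cholesterol out of cells, take it up from high-density lipoprotein (HDL) and remodel HDL in plasma. They were chosen by name, as the rows with the symbols Abca1, Abcg1, Abcg5, Abcg8, Scarb1, Lrp1, Lcat, Pltp and Lipc, and all 9 were found among the 13636 genes of the deposited table. The study measured liver RNA by RNA sequencing in male C57BL/6J mice, an inbred laboratory strain. All groups ate a Western diet from the age of 8 weeks, and after a month of it they were treated for 6 weeks. The PBS group (4 libraries) received the buffer alone, the scramble group (3 libraries) an oligomer of scrambled sequence, and the mimic group (4 libraries) a mimic of the microRNA miR-30c. The dose of both oligomers rose from 2.5 mg/kg through 5.0 mg/kg to 7.5 mg/kg. The labels tie no dose to a library and do not say whether 1 mouse gave 1 library. The p-values therefore rest on the spread of these libraries, which may be technical.

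HDL collects cholesterol from cells and returns it to the liver, a route called reverse cholesterol transport. ABCA1 and ABCG1 hand cellular cholesterol to apolipoprotein A-I and to HDL particles, LCAT, PLTP and hepatic lipase reshape the particles in plasma, and SR-BI takes cholesteryl ester from them into hepatocytes. ABCG5 and ABCG8 then export sterol across the canalicular membrane into bile, while LRP1 clears remnant lipoproteins on the hepatocyte surface.

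The values are scaled CPM, which are read counts relative to library size after a factor per library that sets the bulk of genes level, as deposited. Log2 changes are differences of log2(scaled CPM + 1), a scale on which changes of low genes come out smaller than they are. Every gene of the table reached 1 CPM, by library totals, in at least 3 libraries. A gene low in all controls is thus in the table only where mimic libraries were high. Libraries held between 39705157 and 101380174 counted reads. Major urinary protein (Mup) rows held 37.9% to 52.9% of these reads in the PBS and scramble groups. Mimic replicates 2 and 3 had 34.8% and 41.3%, whereas replicates 1 and 4 stood apart from all others at 12.5% and 11.6%. When reads were divided by library totals in place of the scaling factors, the median of all genes moved to 0.49 in mimic against scramble and to 0.51 in mimic against PBS on the log2 scale, so each direction below is relative to the bulk of genes. Markers of hepatocytes summed to 23393 to 31654 scaled CPM in all 11 libraries, with 1 of 8 called higher and 0 called lower in mimic against scramble, and 2 and 1 against PBS. Within that sum Trf, transferrin, rose from 3871 ± 370 in scramble to 10112 ± 3572 in mimic (SD, n = 3 and 4), while Alb, albumin, was at 17305 ± 2625 and 12092 ± 1618, with an adjusted p of 0.118 by limma. Sinusoidal endothelial markers, with 2 of 8 higher and 1 lower, summed to 76.5 to 97.3 in the controls and 60.0 to 96.3 in mimic, and of 5 bile duct markers only Sox9 was in the table. Sox9 was at 0.25 to 0.82 in the controls and 0.91 to 1.12 in mimic, not called against scramble (adjusted p of 0.0529 by limma) and higher against PBS (log2 change of 0.47, adjusted p of 0.00619). As Sox9 is in the table only through the mimic libraries, nothing is read from its direction.

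The sequence tested by the treatment is that of miR-30c, shown because its seed, the bases that pair with a target RNA, is shared with other members of the miR-30 family. The mature mouse sequences below are from RefSeq (GRCm38.p6), 5′ to 3′, with the seed (bases 2 to 8) in capitals. The mimic's own sequence was not used here. The mature miR-30c-5p is encoded at chr1:23291714-23291736 on the plus strand and at chr4:120769584-120769606 on the minus strand.
miR-30c-5p: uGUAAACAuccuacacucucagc
miR-30a-5p: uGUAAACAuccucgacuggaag
miR-30e-5p: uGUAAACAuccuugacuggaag

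The DNA letters that pair with this seed are TGTTTAC for bases 2 to 8 and GTTTAC for bases 2 to 7. Both were searched on the sense strand of the longest annotated 3′ UTR of each gene (GENCODE M21 on GRCm38). The 7-base match was found in 0 of the 9 genes, against 16.0% of 11449 genes with a 3′ UTR in the table. That share depends on length. Among genes within 20% of a member's 3′ UTR length, it ran from 0% for Lcat (21 bases) to 34.6% for Abcg1 (3703 bases). The 6-base match was found in Abca1 alone of the 9, at base 2424 of a 3′ UTR of 3156 bases. Among 1377 genes whose 3′ UTR was within 20% of that length, 49.2% held the 6-base letters and 28.5% the 7-base letters. The Abca1 match is printed for reference beside the Abca1 values below, with the 6 bases in capitals. It lies at chr4:53031503-53031530 on the minus strand. A match of letters is a description and shows no binding.
Abca1 3′ UTR: aaacacttctgGTTTACtttaaaaaaaa

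In mimic against scramble, limma called 4 of the 9 genes at an adjusted p below 0.05, where 32% of all genes tested were called. Abcg1, Scarb1 and Lrp1 were higher (17.3% of all genes were) and Lipc was lower (14.7% of all genes). In mimic against PBS, 6 of 9 passed, where 37.1% of all genes did. Abcg1, Scarb1, Lrp1 and Pltp were higher (20% of all genes) and Abca1 and Lipc were lower (17.1% of all genes). Both comparisons use the same mimic libraries and are not independent of each other. The median log2 change of the 9 genes was 0.14 against scramble and 0.15 against PBS, where the median of all genes was 0.00 in each. With 9 genes, counts of this size lie near the share of all genes, and nothing is read from them about the genes as a group. In bulk liver, a gene that is lower because fewer cells of a type were present and one that is lower because those cells held less of its RNA cannot be told apart.

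**Figure D1:**
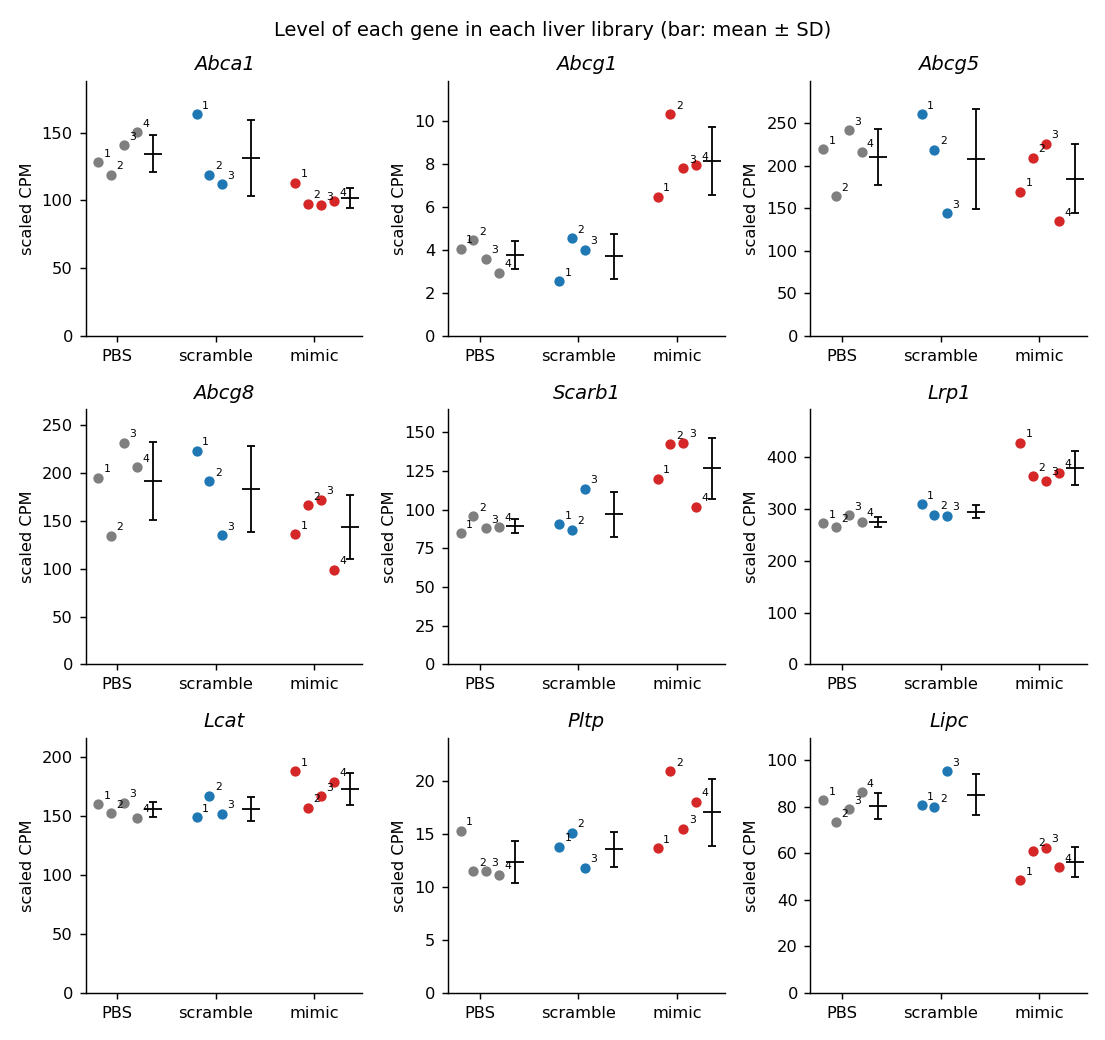
Scaled CPM of the 9 genes (y axis, from 0) in each liver library, by group (x axis), with the replicate number beside each point and the mean ± SD of the group at its right. In Abcg1, Lipc and Lrp1 the 4 mimic libraries lie outside the range of all 7 control libraries; with library totals as the divisor Lipc was not called in either direction.

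Abca1 and Abcg1, the cellular efflux transporters, had opposite signs in the mimic group relative to the bulk of genes, while with library totals both were positive. ABCA1 loads lipid onto lipid-poor apolipoprotein A-I and is needed to form HDL. Abca1 (chr4:53030787-53159895, minus strand) was at 128, 119, 141 and 150 scaled CPM in PBS replicates 1 to 4, at 164, 119 and 112 in scramble replicates 1 to 3, and at 113, 97.6, 96.6 and 99.6 in mimic replicates 1 to 4. All 4 mimic libraries were below all PBS libraries, while mimic replicate 1 and scramble replicate 3 lay side by side. The means were 135 ± 13.7 in PBS (SD, n = 4), 131 ± 28.0 in scramble (SD, n = 3) and 102 ± 7.61 in mimic (SD, n = 4). Against PBS the log2 change was -0.40 ± 0.12 (SE), with an adjusted p of 0.0240 by limma, but it was 0.21 with library totals, where the median of all genes was 0.51. Against scramble it was -0.35 ± 0.13 (SE), with an adjusted p of 0.0598 by limma that misses the threshold and a 95% interval from -0.63 to -0.06, and it was 0.23 with library totals.

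The Abca1 calls depended on single libraries. The call against PBS was lost, at adjusted p of up to 0.0706 by limma, when PBS replicate 3 or 4 or mimic replicate 2, 3 or 4 was left out, with log2 changes between -0.45 and -0.34 over all libraries left out in turn. Against scramble the gene was called without scramble replicate 3 (adjusted p of 0.0402 by limma) and with DESeq2 on the recovered reads (adjusted p of 0.0235), while without scramble replicate 1 its log2 change was -0.18, with an adjusted p of 0.260 by limma. With library weights it was called at -0.35 (adjusted p of 0.0423 by limma). The 6-base seed match printed above is in this gene, and whether it has a part in the Abca1 values was not tested.

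ABCG1 moves cholesterol to mature HDL particles and is best known from macrophages. Abcg1 (chr17:31057675-31117988, plus strand) was at 4.07, 4.47, 3.61 and 2.95 scaled CPM in PBS replicates 1 to 4, at 2.55, 4.54 and 4.01 in scramble replicates 1 to 3, and at 6.48, 10.3, 7.82 and 7.96 in mimic replicates 1 to 4. Each mimic library was above each control library. The mean rose from 3.70 ± 1.03 in scramble (SD, n = 3) to 8.14 ± 1.60 in mimic (SD, n = 4), a ratio of means of 2.20, and it was 3.77 ± 0.651 in PBS (SD, n = 4). Against scramble the log2 change was 0.97 ± 0.17 (SE) at an adjusted p of 0.00194 by limma, and against PBS it was 0.93 ± 0.16 at 0.00132. Library totals gave 1.47 and 1.45. Of the 9 genes, Abcg1 had the biggest log2 change in both comparisons.

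Most listed markers of myeloid and lipid-associated macrophages were higher in the mimic group, as was Abcg1. Of the 11 listed markers, all measured, 9 were higher and 0 lower in mimic against scramble, and their summed level was 45.1 to 106 scaled CPM in PBS, 56.3 to 69.6 in scramble and 199 to 291 in mimic. The counts were 9 and 0 without mimic replicates 1 and 4 as well. Of all genes, 17.3% were higher and 14.7% lower. The 2 markers not called were the general macrophage genes Adgre1, at 0.28 ± 0.28 (SE), and Csf1r, at 0.37 ± 0.33. Among the 9, Trem2 and Gpnmb were at most 0.30 and 0.84 scaled CPM in the controls. They are in the table only through the mimic libraries, and nothing is read from their direction. The 10 markers of Kupffer cells, the resident macrophages of liver, had 2 higher and 5 lower, with summed levels of 95.0 to 203 in the controls and 101 to 185 in mimic. The 4 measured neutrophil markers (5 listed) were all higher, with summed levels of 1.14 to 2.64 in the controls and 15.1 to 30.2 in mimic. Of these, S100a8, S100a9 and Ltf were at most 0.37, 0.64 and 0.065 in the controls. They are in the table only through the mimic libraries, so their direction was set by that filter and nothing is read from it. The part of these cells in the Abcg1 values was not tested. Over the 11 libraries, which share the group difference, Abca1 and Abcg1 had a Pearson correlation of -0.92 on the log2 scale, and -0.87 after group means were subtracted. Each was the most negative value among all pairs of the 9 genes, and nothing is read from it about the pair.

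**Figure D2:**
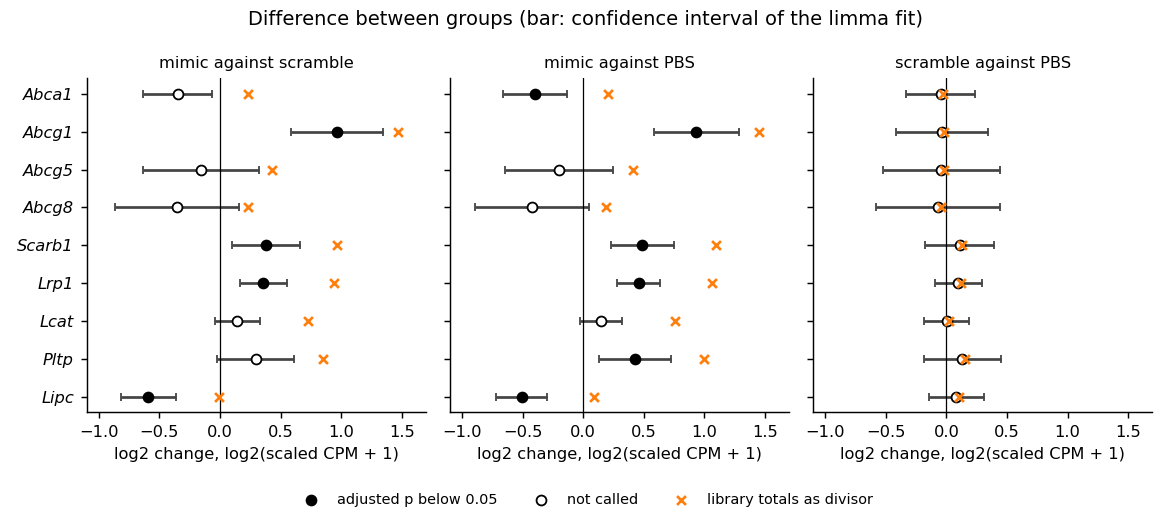
Log2 change of each gene (x axis, difference of log2(scaled CPM + 1)) in the 3 comparisons, with bars for the 95% interval of the limma fit, filled circles for an adjusted p below 0.05 and crosses for the value with library totals as the divisor. With library totals the 9 genes shift upward in both comparisons with mimic, and Abca1, Abcg5 and Abcg8 change sign in both, Lipc in mimic against PBS.

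Abcg5 and Abcg8 encode the subunits of the heterodimer that exports cholesterol and plant sterols into bile. The genes lie head to head on chromosome 17, Abcg5 at chr17:84658234-84683011 on the minus strand and Abcg8 at chr17:84676302-84700333 on the plus strand. The RefSeq table gives Abcg5 a start site at 84683011 and Abcg8 start sites at 84683121 and, inside Abcg5, at 84676302. The first of the Abcg8 sites is 110 bases from that of Abcg5. The stretch between these neighbouring sites is printed because it lies upstream of both of them. It is inside the annotated Abcg8 gene, downstream of the other Abcg8 start site. Whether it has a part in the values of the pair was not tested. The stretch spans chr17:84683011-84683121 (GRCm38.p6, minus strand, read 5′ to 3′ toward Abcg5), and the capitals mark TATAAA at 84683090 to 84683095. Read from the other strand, the same 6 bases lie 31 to 26 bases upstream of this Abcg8 start site, and 84 to 79 upstream of that of Abcg5. TATAAA on either strand, searched in the 300-base windows of RefSeq around start sites, was found in 13.6% of 32851 promoters, and a match shows no use of the site.
Abcg5 and Abcg8: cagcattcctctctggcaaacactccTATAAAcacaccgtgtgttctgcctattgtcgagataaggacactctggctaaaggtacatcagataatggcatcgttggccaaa

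Neither sterol exporter passed the test on its own. Abcg5 was at 219, 164, 242 and 216 scaled CPM in PBS replicates 1 to 4, at 260, 219 and 145 in scramble replicates 1 to 3, and at 169, 210, 226 and 135 in mimic replicates 1 to 4. The groups overlapped throughout. Its log2 change was -0.16 ± 0.22 (SE) against scramble, with a 95% interval from -0.64 to 0.32, and -0.20 ± 0.20 against PBS, with an interval from -0.64 to 0.25, while library totals gave 0.43 and 0.41. Without scramble replicate 1 the change against scramble was 0.03.

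Abcg8 was at 195, 135, 232 and 206 scaled CPM in PBS replicates 1 to 4, at 223, 192 and 135 in scramble replicates 1 to 3, and at 136, 166, 172 and 99.1 in mimic replicates 1 to 4. These groups overlapped too, with PBS replicate 2 and scramble replicate 3 in the range of the mimic libraries. Its log2 change was -0.35 ± 0.23 (SE) against scramble, with a 95% interval from -0.86 to 0.16, and -0.42 ± 0.22 against PBS, with an interval from -0.89 to 0.05, while library totals gave 0.23 and 0.19. Against PBS it was called without PBS replicate 2, at -0.58 with an adjusted p of 0.0425 by limma, and with library weights, at -0.68 with an adjusted p of 0.0153. It was smaller without mimic replicate 4, at -0.19 against scramble and -0.26 against PBS, and without scramble replicate 1, at -0.20 against scramble. Without mimic replicates 1 and 4, the libraries that stood apart, it was -0.0843 against scramble and -0.15 against PBS.

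The ratio of Abcg5 to Abcg8 within a library does not depend on the scaling of that library. It was 1.12, 1.22, 1.04 and 1.05 in PBS replicates 1 to 4, 1.17, 1.14 and 1.07 in scramble replicates 1 to 3, and 1.24, 1.26, 1.31 and 1.36 in mimic replicates 1 to 4. All 4 mimic libraries were above all 7 controls. The means were 1.11 ± 0.0828 (SD, n = 4), 1.13 ± 0.0489 (SD, n = 3) and 1.29 ± 0.0530 (SD, n = 4). The log2 ratio was higher in mimic by 0.20 than in scramble and by 0.23 than in PBS, each at p = 0.0286 in a two-sided exact permutation test over libraries, the smallest p that either comparison allows. Adjusted over the 3 comparisons these were 0.0429. The difference of scramble from PBS was 0.03, at an exact permutation p of 0.743. With any library of these groups left out, the differences from scramble stayed between 0.16 and 0.22 and those from PBS between 0.20 and 0.27. The adjusted p of the permutation test nonetheless rose above 0.05 in both comparisons when any 1 mimic or scramble library was left out. It did so too without mimic replicates 1 and 4. With so few libraries the adjusted p could not have been below 0.05.

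Levels of the pair ran together across the 11 libraries, with a Pearson correlation of 0.95 on the log2 scale and 0.97 after group means were subtracted. In the annotation their exons share 82 bases on opposite strands, 3.02% of the Abcg5 exons and 2.19% of those of Abcg8. The libraries were made with a stranded kit, but whether counting used the strand is not given in the sources used here, so a small number of reads could have been counted for both genes.

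**Figure D3:**
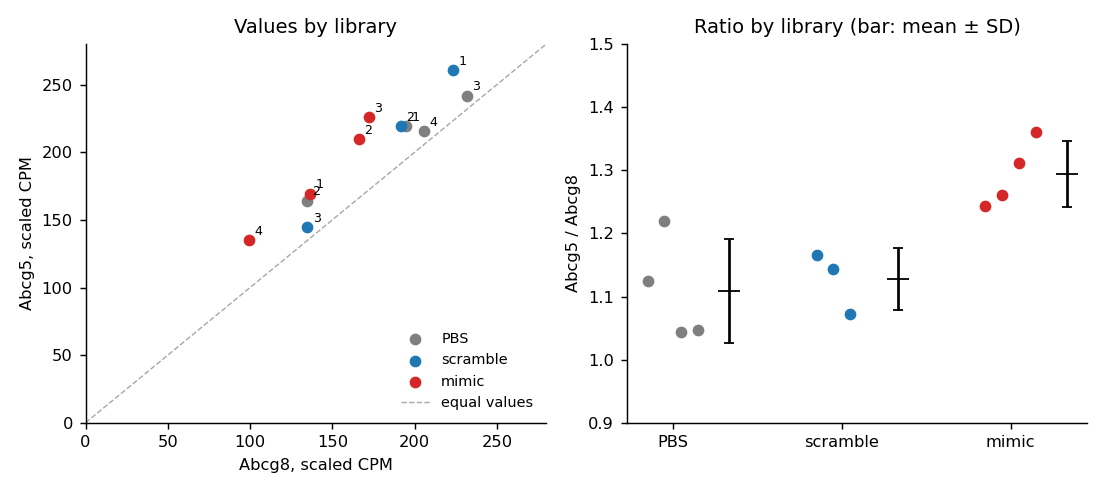
Left, scaled CPM of Abcg5 (y axis) against Abcg8 (x axis) in each library, with the line of equal values and the replicate number beside each point; right, their ratio in each library by group, with the mean ± SD, on an axis that starts at 0.9. The 4 mimic libraries have ratios of 1.24 to 1.36, above the 7 controls at 1.04 to 1.22.

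Scarb1 and Lrp1, the receptors of the set, were both higher in the mimic group. With library totals, where the medians over all tested genes were 0.49 and 0.51, the log2 changes against scramble and PBS were 0.96 and 1.09 for Scarb1 and 0.94 and 1.07 for Lrp1. Scarb1 encodes SR-BI, the HDL receptor that takes up cholesteryl ester selectively. Scarb1 (chr5:125277087-125341094, minus strand) was at 84.8, 95.8, 87.9 and 89.1 scaled CPM in PBS replicates 1 to 4, at 90.6, 86.9 and 113 in scramble replicates 1 to 3, and at 120, 142, 143 and 102 in mimic replicates 1 to 4. Every mimic library was above every PBS library, and scramble replicate 3 was above mimic replicate 4. The mean rose from 89.4 ± 4.64 in PBS (SD, n = 4) to 127 ± 19.7 in mimic (SD, n = 4), a log2 change of 0.49 ± 0.12 (SE) with an adjusted p of 0.00871 by limma. Against the scramble mean of 97.0 ± 14.4 (SD, n = 3) the log2 change was 0.38 ± 0.13 (SE), with an adjusted p of 0.0416 by limma.

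The Scarb1 call against scramble lay near the threshold. It was lost, at adjusted p of up to 0.142 by limma, when PBS replicate 1, 3 or 4, scramble replicate 1 or 2, or mimic replicate 1, 2 or 3 was left out, although the log2 change stayed between 0.31 and 0.50. It was also lost with only the compared groups in the fit (adjusted p of 0.0800 by limma) and with library weights (0.0659).

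Lrp1 encodes a large endocytic receptor for remnant lipoproteins and many other ligands. Lrp1 (chr10:127538161-127621148, minus strand) was at 273, 265, 288 and 275 scaled CPM in PBS replicates 1 to 4, at 309, 289 and 287 in scramble replicates 1 to 3, and at 428, 363, 355 and 370 in mimic replicates 1 to 4. The mimic libraries did not overlap with any control, and mimic replicate 1 was the highest of them. The mean rose from 295 ± 12.1 in scramble (SD, n = 3) to 379 ± 33.1 in mimic (SD, n = 4) and was 275 ± 9.48 in PBS (SD, n = 4). Against scramble the log2 change was 0.36 ± 0.09 (SE) at an adjusted p of 0.0105 by limma, and against PBS it was 0.46 ± 0.08 at 0.00162.

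Lrp1 is expressed by fibroblasts and macrophages as well as hepatocytes. Of 9 markers of stellate cells and fibroblasts, 6 were higher and 1 lower in mimic against scramble, with summed levels of 62.9 to 102 scaled CPM in the controls and 185 to 356 in mimic. Of all genes, 17.3% were higher and 14.7% lower. Among the 6, Acta2 was at most 0.67 in the controls and is in the table only through the mimic libraries. The part of these cells, and of the macrophages above, in the Lrp1 values was not tested.

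Of the plasma remodelling genes, Lipc was called lower in both comparisons with mimic (with library totals in neither), Pltp was called higher against PBS, and Lcat was called in neither. Lipc encodes hepatic lipase, which hydrolyses triglyceride and phospholipid of HDL and remnants. Lipc (chr9:70798128-70952226, minus strand) was at 82.9, 73.3, 79.1 and 86.3 scaled CPM in PBS replicates 1 to 4, at 80.6, 79.9 and 95.4 in scramble replicates 1 to 3, and at 48.4, 60.9, 62.4 and 54.1 in mimic replicates 1 to 4. All mimic libraries lay below all controls. The mean fell from 85.3 ± 8.71 in scramble (SD, n = 3) to 56.4 ± 6.47 in mimic (SD, n = 4) and was 80.4 ± 5.55 in PBS (SD, n = 4). Against scramble the log2 change was -0.59 ± 0.10 (SE) at an adjusted p of 0.00183 by limma, and against PBS it was -0.51 ± 0.10 at 0.00233, but library totals gave -0.0100 and 0.0935, neither of them called, against the 0.49 and 0.51 of all genes. Without mimic replicates 1 and 4 the changes were -0.46 and -0.38, still called.

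PLTP transfers phospholipid between lipoproteins and enlarges HDL. Pltp (chr2:164839518-164857711, minus strand) was at 15.3, 11.5, 11.5 and 11.1 scaled CPM in PBS replicates 1 to 4, at 13.8, 15.1 and 11.8 in scramble replicates 1 to 3, and at 13.7, 20.9, 15.5 and 18.0 in mimic replicates 1 to 4. PBS replicate 1 lay above mimic replicate 1, and the scramble libraries overlapped with the mimic libraries. The means were 12.3 ± 1.97 in PBS (SD, n = 4), 13.6 ± 1.65 in scramble (SD, n = 3) and 17.0 ± 3.15 in mimic (SD, n = 4). Against PBS the log2 change was 0.43 ± 0.14 (SE), with an adjusted p of 0.0281 by limma. Against scramble it was 0.30 ± 0.15, with an adjusted p of 0.138 and a 95% interval from -0.02 to 0.62, and with library totals it was 0.85, called at an adjusted p of 0.0118 by limma.

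The Pltp call against PBS was lost, at adjusted p of up to 0.0761 by limma, when PBS replicate 2, 3 or 4 or mimic replicate 2 or 4 was left out. The exons of Pltp share 495 bases (19.3% of their length) with those of Ctsa on the opposite strand, which encodes the lysosomal protein cathepsin A. Ctsa was at 57.4 ± 4.47 in PBS (SD, n = 4), 58.1 ± 4.88 in scramble (SD, n = 3) and 81.9 ± 2.999 in mimic (SD, n = 4), a log2 change of 0.51 against PBS. As strand use in counting is not given in the sources used here, the Pltp values are uncertain, and the part of Ctsa reads in them was not tested.

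LCAT esterifies the cholesterol of HDL and so matures the particle. Lcat (chr8:105939551-105943382, minus strand) was at 160, 152, 161 and 148 scaled CPM in PBS replicates 1 to 4, at 149, 167 and 152 in scramble replicates 1 to 3, and at 188, 157, 167 and 179 in mimic replicates 1 to 4. The highest values were in mimic replicates 1 and 4, and the others overlapped with the controls. The log2 change was 0.14 ± 0.08 (SE) against scramble, with a 95% interval from -0.04 to 0.33, and 0.15 ± 0.08 against PBS, with an interval from -0.02 to 0.32. Adjusted p was 0.205 and 0.156 by limma. With library totals the changes were 0.73 and 0.75, called at adjusted p of 0.0302 and 0.0133 by limma.

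Groups that did not overlap were seen for 3 of the 9 genes in mimic against scramble, namely Abcg1, Lrp1 and Lipc, where 40.8% of all genes tested did not overlap. In mimic against PBS they were seen for 5 of 9, with Scarb1 and Abca1 in addition, where 31.7% of all genes did not overlap. Without mimic replicates 1 and 4, Abcg1, Scarb1, Lrp1 and Lipc were called in both comparisons and Pltp against PBS, while Abca1 was not called against PBS (-0.46, adjusted p of 0.0543 by limma). In that fit Abcg5 was at 0.11 against scramble and 0.06 against PBS, and Abcg8 at -0.0843 and -0.15.

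The comparison of scramble with PBS asks what injection of an oligomer of unrelated sequence did to these genes. None of the 9 was called, where 0% of all genes was called with limma. The log2 changes lay between -0.07 for Abcg8 and 0.13 for Pltp, and adjusted p was 0.9997 for each. At an unadjusted p below 0.05, limma had 0 of the 9 genes and 434 of all genes. The edgeR quasi-likelihood test called 0 genes and DESeq2 14, with none of the 9 among them. The 95% intervals, which are not adjusted for the number of genes, were widest for Abcg8, from -0.58 to 0.44, and narrowest for Lcat, from -0.18 to 0.19. Differences within these bounds are not excluded.

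Levels can be compared between genes only per length. Divided by the length of the longest coding transcript in kilobases, the PBS group had Lcat at 116 ± 4.56 scaled CPM per kb (SD, n = 4), Abcg5 at 89.4 ± 13.9, Abcg8 at 52.3 ± 11.2, Lipc at 41.9 ± 2.89, Scarb1 at 35.5 ± 1.84, Lrp1 at 18.5 ± 0.636, Abca1 at 13.1 ± 1.34, Pltp at 5.55 ± 0.885 and Abcg1 at 0.647 ± 0.112. Among neighbours in this order, the libraries of Abcg8 and Lipc overlapped and the others did not. In the scramble group the order was the same, and Lcat overlapped with Abcg5, Abcg8 with Lipc, and Lipc with Scarb1. In the mimic group Scarb1, at 50.3 ± 7.82 per kb (SD, n = 4), stood before Abcg8 at 39.1 ± 9.13 and Lipc at 29.4 ± 3.37, and each of these overlapped with its neighbour, Lipc also with Lrp1 at 25.4 ± 2.22. Lcat led at 129 ± 10.1 and Abcg1 was last at 1.40 ± 0.274 in that group. The place of Scarb1 depends on the length used. The union of its exons spans 8500 bases and its longest coding transcript 2521, and with the former, which was tried first, its PBS level was 10.5 per kb.

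Genes whose pattern over the 11 libraries was most like that of a member were ranked by Pearson correlation of log2 values among the 7904 genes that averaged 5 scaled CPM or more. These correlations include the group differences and are descriptions of 11 libraries. Abcg1 was most like Aldh16a1 (r = 0.99), the arrestin gene Arrb2 (0.98) and the small GTPase gene Rhog (0.97). Lipc was most like Sar1b (0.98), a GTPase of vesicle export from the endoplasmic reticulum, then Fam126b (0.98) and Pcbp2 (0.98). Lrp1 was nearest to the lipid kinase gene Pi4ka (0.98), Trim30d (0.98) and Serpind1 (0.97). Scarb1 was nearest to the complement gene C2 (0.97), to Ahsg (0.95), which encodes the plasma protein fetuin-A, and to the mitochondrial carrier gene Slc25a12 (0.94).

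For the remaining genes the nearest patterns were as follows. Abca1 resembled Samd4b (0.95), Tex2 (0.92) and Cmip (0.92). Pltp resembled the myosin gene Myo1c (0.97), the lysosomal hexosaminidase gene Hexa (0.92) and the scavenger receptor gene Stab1 (0.92), and Lcat resembled Vmac (0.97), BC096455 (0.94) and Gmppa (0.94). Abcg5 had weaker neighbours in Zmym4 (0.86), the sodium pump subunit gene Atp1b1 (0.85) and Rfc1 (0.82). Abcg8 had Abcc6 (0.89), another ABC transporter of hepatocytes, Ppp1r10 (0.89) and Tle2 (0.88).

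The surrounding pathway was described by 8 lists of genes, each counted in mimic against scramble with limma at an adjusted p of 0.05. Among all genes tested, 17.3% were called higher and 14.7% lower in that comparison, and 20% and 17.1% against PBS. The lists are short, and nothing is read from their counts about any list as a group. With library totals as the divisor no list had more than 1 gene called lower, and the list medians were between 0.07 and 0.75 where that of all genes was 0.49, so the directions within the lists are relative to the bulk of genes. Against PBS the count of a list in either direction differed from that against scramble by at most 2 genes. Of 18 HDL apolipoproteins and HDL-bound proteins, 5 were higher and 2 lower, with a median log2 change of 0.16 and the same counts without mimic replicates 1 and 4. Apoa1, the main protein of HDL, was not called, at -0.09 ± 0.16 (SE), or Apoe, at -0.31 ± 0.17. Apof, which encodes a regulator of lipid transfer, rose from 157 ± 4.49 to 329 ± 58.8 (SD, n = 3 and 4) and Pon1, an HDL-borne esterase, fell from 332 ± 25.1 to 222 ± 16.1. The acute phase genes Saa1 and Saa2, whose products ride on HDL, had log2 changes of 7.92 and 9.22, with values that are uncertain because the genes are near-identical. Apom, a carrier of sphingosine 1-phosphate on HDL, was higher by 0.59.

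Of 11 measured lipoprotein lipases and their regulators (12 listed), 2 were higher and 2 lower, with a median of -0.05. Lpl, lipoprotein lipase, rose from 21.2 ± 2.44 to 45.2 ± 4.12 and Pla2g7, the lipoprotein-associated phospholipase known from macrophages, from 1.49 ± 0.635 to 7.31 ± 0.866 (SD, n = 3 and 4). Both are expressed by macrophages, whose marker levels are given above. Lipg, endothelial lipase, and Pcsk6, a protease that can cleave such lipases, had log2 changes of -1.09 and -0.88. Of 17 lipoprotein receptors and adaptors, 6 were higher and 2 lower, with a median of 0.21, and 3 and 1 without mimic replicates 1 and 4. Sorl1, a sorting receptor, changed by 1.21, Lrp5 by 0.62 and the remnant receptor Sdc1 by 0.54, while Lrp6 changed by -0.46. As Sorl1 was at most 0.91 scaled CPM in the controls, it is in the table only through the mimic libraries, and nothing is read from its direction. Pdzk1, the adaptor that holds SR-BI at the hepatocyte surface, was at -0.07 ± 0.09 (SE) and was not called.

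Of 6 measured canalicular lipid and bile transporters (7 listed), 0 were higher and 3 lower, with a median of -0.51, but with library totals 0 were called and the median was 0.07. The genes called were Abcg2, the xenobiotic exporter, at -0.61, Abcb4, the phospholipid flippase of bile, at -0.69, and Tmem30a, the partner of the lipid flippase ATP8B1, at -0.45. Abcb4 fell from 179 ± 34.4 to 114 ± 36.4 (SD, n = 3 and 4), while Abcc2, the exporter of conjugates, was at -0.57 ± 0.23 (SE) and Abcb11, the bile salt pump, at 0.03 ± 0.21, neither called. Against PBS 3 of the 6 were lower as well, at a median of -0.45, or of 0.15 on library totals.

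Of 9 measured other ABCA and ABCG transporters (10 listed), 2 were higher and 3 lower, with a median of 0.20, and 2 and 1 without mimic replicates 1 and 4. Abcg3 and Abca9 changed by 1.13 and 0.58, Abca8a and Abca6 by -1.25 and -0.56. Of 16 genes of intracellular cholesterol handling, 4 were higher and 5 lower, with a median of -0.10, and 2 and 2 without those replicates. Soat1, which esterifies cholesterol for storage and is the macrophage form, rose from 1.11 ± 0.105 to 3.25 ± 0.372, and the lysosomal cholesterol carrier Npc2 from 23.1 ± 1.95 to 44.6 ± 5.30 (SD, n = 3 and 4). Its membrane partner Npc1 fell from 76.8 ± 4.78 to 55.4 ± 4.003, and Gramd1b, a carrier of cholesterol from the plasma membrane, was higher by 0.48.

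The nuclear receptors LXR and their cofactors are the textbook activators of Abca1, Abcg1, Abcg5 and Abcg8. Of 14 genes of LXR receptors, cofactors and targets, 1 was higher and 2 lower, with a median of -0.07. Nr1h3, which encodes LXR alpha, was at 31.1 in PBS, 31.4 in scramble and 31.3 in mimic, a log2 change of -0.01 ± 0.07 (SE) against scramble, and Nr1h2, for LXR beta, was at 0.10 ± 0.07. The target Arl4c rose from 1.11 ± 0.187 to 2.51 ± 0.512 (SD, n = 3 and 4), the corepressor gene Ncor1 changed by -0.58 and the desaturase Scd1 by -1.002, while the coactivator Ncoa1 was at -0.15 and was not called. Of 10 other nuclear regulators, 1 was higher and 1 lower, with a median of -0.20. Srebf2, which drives genes of sterol uptake and synthesis, rose from 10.3 ± 0.497 to 15.5 ± 1.30 and Ppara, the fatty acid receptor, fell from 237 ± 31.0 to 150 ± 31.9 (SD, n = 3 and 4). Nr1h4 and Hnf4a were at -0.23 and -0.38, neither called.

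**Figure D4:**
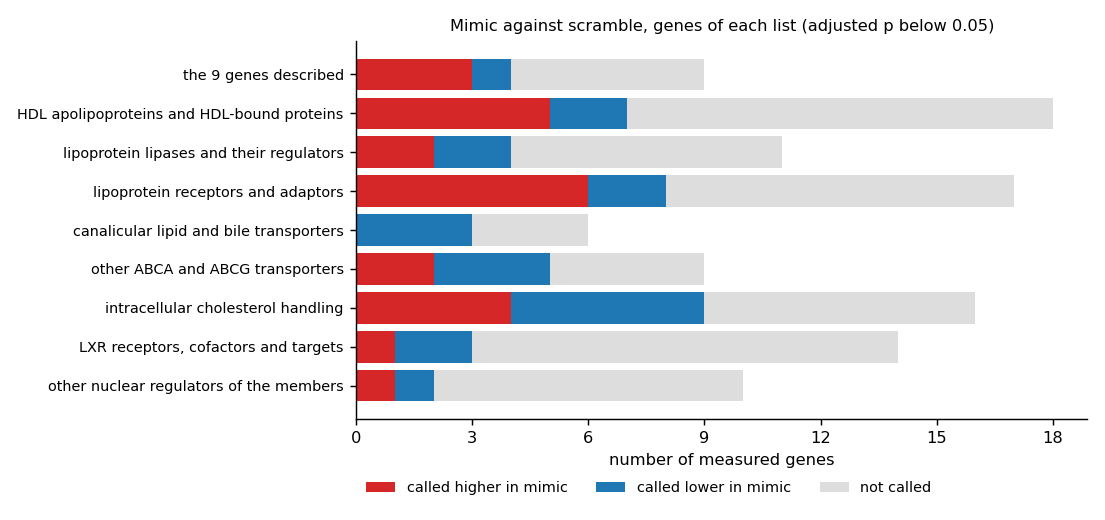
Number of measured genes (x axis) of the 9 genes described and of 8 pathway lists (y axis) that limma called higher or lower at an adjusted p below 0.05 in mimic against scramble. Of all genes tested, 17.3% were called higher and 14.7% lower. Of the canalicular transporters 3 of 6 were lower and 0 higher, a count that was 0 in both directions with library totals.

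The Abca1 promoter is printed because LXR, SREBP and basal factors are known to act there. The stretch is the 170 bases before the RefSeq start site, chr4:53159896-53160065 (GRCm38.p6, minus strand, 5′ to 3′). The capitals mark, from left to right, a GC box (GGGCGG), an E-box (CACGTG), a further GC box, a DR4 element for LXR and TATAAA. Both strands were searched. The DR4 element, from -67 to -52 relative to the start, was found only after the search was relaxed: with the strict form of the element, 0 of the 7 members with a promoter in the RefSeq table matched, and the first base of each repeat was then freed with this known element in mind. The relaxed form was in 0.621% of 32851 promoter windows of 300 bases and the strict form in 0.231%. The E-box letters were in 7.15%, the GC box in 35.7% and TATAAA in 13.6%. These matches are descriptions of the letters and nothing is drawn from them about the factors.
Abca1: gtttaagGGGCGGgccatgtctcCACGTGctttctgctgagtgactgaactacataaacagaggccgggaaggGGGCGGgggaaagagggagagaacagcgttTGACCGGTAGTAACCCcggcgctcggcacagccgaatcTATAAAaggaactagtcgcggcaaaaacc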

How the data were processed

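Per the labels' protocols, a stranded mRNA kit was used on liver RNA and reads were paired. The submitters' processing notes name Bowtie, bedtools 2.17.0, edgeR 3.8.6 and the build mm10 among the tools and builds. The table deposited by the authors holds a scaled signal per gene and library, here called scaled CPM, with scaling factors of 0.665 to 1.65. The design had assumed plain CPM, and the same test was kept. In all 11 libraries the deposited values were whole multiples of what 1 read is worth, to 1e-06, so that reads could be recovered for edgeR and DESeq2. In 2 libraries this was also found by an independent check of low values, which lacked enough low values or a single-read value in the other 9. Of the rows, 54 were identical to another, with no member among them.

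The test was limma 3.58.1 in R 4.3.3 on log2(value + 1), fitted once to the 3 groups with the trend of variance on mean. P-values were adjusted by Benjamini-Hochberg over 13636 genes, with a threshold of 0.05. In simulated data with 100 genes changed by each of 2-fold and 4-fold, the fit recovered 80% and 100% in mimic against scramble, 94% and 100% in mimic against PBS and 92% and 100% in scramble against PBS, with 11, 13 and 11 false calls. The simulation gave every gene the same dispersion in all groups. It changed far fewer genes than were called in the comparisons with mimic, so its figures are not the recovery in these data. Recovery of changes smaller than 2-fold, the size seen in each of the 9 genes but Abcg1, was not tested. Groups came from the sample titles. All 9 members are named, with up to 4 genes of the smallest p in each pathway list and the 3 genes most alike in pattern to each member. The genes Apoa1, Apoe, Apom, Pdzk1, Abcb11, Nr1h3, Nr1h2, Ctsa, Trf, Alb and Sox9 were named outside this rule, after their values were seen. So were the markers Adgre1, Csf1r, Trem2, Gpnmb, S100a8, S100a9, Ltf and Acta2. Members and lists were chosen with earlier results of these data known, and the length used for levels per kb and the relaxed DR4 search were chosen after seeing values. Alternatives covered the pseudocount (0.25), a mean of at least 5, the scaling, fits with a replicate block, with only the compared groups, without the variance trend or with library weights, edgeR 4.0.16, DESeq2 1.42.0, and each library left out. Counts of replicates differed by far more than sampling noise (chi-square per degree of freedom of 61.0 or more), so no library was a duplicate.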

Additional observations from a re-analysis of the deposited data

Results flagged for a closer look

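Pltp in PBS replicate 1 was at 15.3 scaled CPM, apart from the other 3 PBS libraries at 11.1 to 11.5. The gap to its neighbour took up most of the range of the group. Of 20 groups of 4 libraries examined in this way, this was the only one to stand out, and chance alone marks about 1 in 20. Without this library the Pltp log2 change in mimic against PBS was 0.53, with an adjusted p of 0.0136 by limma.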

How the results depend on the processing

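The member counts of 4, 6 and 0 stayed within 1.5 times of these values under every alternative run, at 3 to 5, 4 to 6 and 0 with each library left out. With library totals their split was 5 higher and 0 lower in both comparisons with mimic, where it had been 3 and 1, and 4 and 2. Replicate numbers do not pair the libraries by the labels: same-numbered libraries had correlations of deviations of -0.36 to 0.30, with 4 of 10 over 0.1. With the replicate number as a block, 3808, 4584 and 0 genes were called and no member's call changed. Genes called numbered 2816 against scramble and 3273 against PBS when a mean of 5 or more was required, where fewer genes were tested, and 2548 and 2894 without mimic replicates 1 and 4, where fewer libraries were used. With each library left out they numbered 2824 (without scramble replicate 1) to 4904, and 3758 to 5681. For scramble against PBS they were 5 with only the compared groups, 14 with DESeq2, and 0 to 1 with each library left out; the cause was not tested. With library totals the split of calls was 5498 higher and 110 lower against scramble and 6882 and 120 against PBS, where it had been 2363 and 2000, and 2733 and 2326. Signs turned with library totals for Abca1 (0.23 and 0.21), Abcg5 (0.43 and 0.41), Abcg8 (0.23 and 0.19) and, against PBS, Lipc (0.0935), and without mimic replicates 1 and 4 for Abcg5 (0.11 and 0.0639). The Lcat value in scramble against PBS was -0.0073 with library weights. With each library left out, Abcg5 in mimic against scramble ranged from -0.40 to 0.0264. In scramble against PBS the ranges were -0.0089 to 0.18 for Scarb1, -0.21 to 0.0569 for Abca1, -0.17 to 0.15 for Abcg1, -0.22 to 0.20 for Abcg5, -0.23 to 0.14 for Abcg8 and -0.0484 to 0.0355 for Lcat. The Abcg5 to Abcg8 log2 ratio ranged from 0.16 to 0.22, 0.20 to 0.27 and -0.0021 to 0.073, and was 0.19 and 0.22 without mimic replicates 1 and 4. Its adjusted p by the exact permutation test was then 0.20. With that few libraries the test could not pass the threshold in either comparison. Abcg1 and Lrp1 kept their calls in both comparisons under each alternative run, and Lipc under all but library totals. Counting noise weighs most on the low genes, here Abcg1 and Pltp, which had at least 172 and 617 reads in each library. Their SDs within groups were 17.2% to 27.8% of the mean for Abcg1 and 12.2% to 18.5% for Pltp.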
